A study of Mus musculus with 4 samples.

Results

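The genes described here encode heat shock proteins and the co-chaperones that work with them in the cytosol and in mitochondria. They were taken by name from the authors' deposited table: symbols that start with the stems Dnaja, Dnajb, Dnajc, Hspa, Hspb, Hsf or Bag followed by a digit, or with Hsp90a, Hspd1, Hspe1 or Hsph1. Of 79 such symbols the endoplasmic reticulum (ER) genes Hspa5, Dnajb9, Dnajb11 and Dnajc3 were left out, which gave 75 members of 16709 symbols in all. The members held 118 of the 24746 transcripts. Some genes taken this way lie outside the cytosol and mitochondria or are no chaperones: Dnajc10 encodes a protein of the ER lumen, Hspa13 an ER-associated HSP70 relative, Dnajc1, Dnajb12 and Dnajb14 J proteins of the ER membrane, Hspb11 a subunit of the intraflagellar transport complex, and Hsf2bp a meiotic protein.

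RNA sequencing was done on 3T3-L1 cells, mouse preadipocytes of a fibroblast-like line able to become adipocytes, grown in DMEM with fetal bovine serum. One group received Nutlin-3a dissolved in DMSO at 25 µM over 24 h, and the control group the same amount of DMSO. Nutlin-3a blocks the binding of MDM2 to p53, and the comparison asks which transcripts differ when p53 is activated in this way. There were 2 biological replicates in each group and 4 libraries in all, but the table gives 1 value per transcript and group, in FPKM (fragments per transcript kilobase, relative to all mapped fragments). No value below therefore carries a replicate error or a p-value, and "higher" and "lower" describe the size of a difference between 2 group values.

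Chaperones keep other proteins foldable. HSP70 binds short hydrophobic stretches of unfolded proteins in a cycle driven by ATP; J proteins bring the client and start ATP hydrolysis, while HSP110 and BAG proteins release the nucleotide and with it the client. HSP90 takes over clients such as kinases and steroid receptors, HSP60 and HSP10 form a closed folding chamber in mitochondria, and small heat shock proteins hold unfolded chains without ATP. Heat shock factor 1 (HSF1) induces many of these genes when unfolded proteins build up.

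Of the 75 members, 60 had a group mean of at least 1 FPKM, with neither group at 0, and were compared. The other 15 were under this mean, among them 3 listed at 0 in DMSO (Dnajb3, Dnajb8 and Dnajc6) and 2 listed at 0 in Nutlin-3a (Dnajc5b and Hspb9). Transcripts were summed per gene, and ratios of Nutlin-3a over DMSO were taken as log2 of (FPKM + 1), which understates differences of weakly expressed genes; folds are plain ratios of FPKM. A gene was called higher or lower at a 2-fold difference on the log2(FPKM + 1) scale. By this limit 6 members were higher (Dnajc25, Dnajc9, Dnajb1, Hsph1, Hspa1l and Hspb1) and 4 were lower (Hspa12b, Hspb6, Hspb2 and Dnajc17), with 50 within it. Over all 10331 genes compared, 6.62% were called higher and 6.14% lower, so the members' counts lay near the background. A limit of 1.5-fold gave 14 members higher and 4 lower, beside 17.8% and 15.2% of all genes; the members added, all of them higher, were Dnajb6, Dnajc10, Dnajc16, Dnajc2, Dnajc5, Hsp90aa1, Hspa14 and Hspa4. The median log2 ratio of the 60 members was 0.16, with quartiles of -0.15 and 0.55, beside 0.07, -0.33 and 0.44 over all genes. A ratio above 0 was found for 38 members (63.3%), beside 54.8% of all genes.

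**Figure D1:**
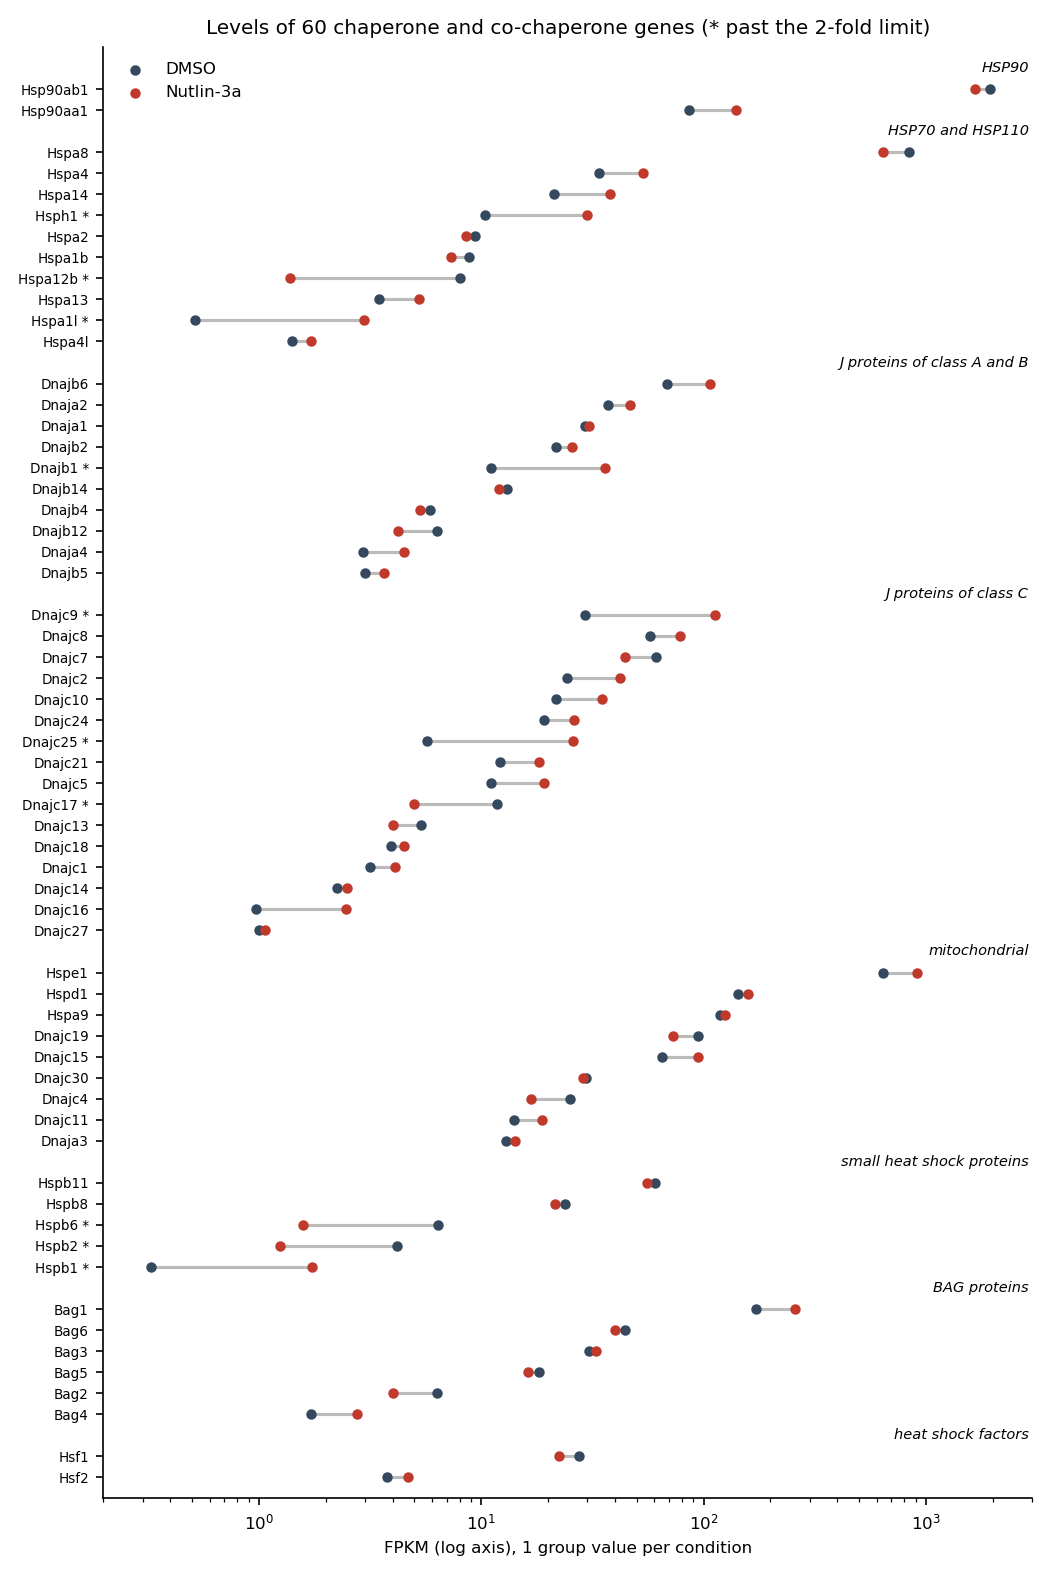
FPKM of the 60 chaperone and co-chaperone genes compared, on a log axis, with 1 dark point for the DMSO group value and 1 red point for the Nutlin-3a group value, sorted by mean within each role. The 10 genes with a star lie past the 2-fold limit, and the most abundant gene of each role is not among them except Dnajc9.

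As checks, the p53 target Cdkn1a stood at 386 FPKM with Nutlin-3a against 35.2 FPKM with DMSO. Its fellow targets Ccng1 (199.9 against 22.3 FPKM) and Ppm1d (17.9 against 4.14 FPKM) were called higher too. Mdm2, a further check, went the other way, listed at 0 with Nutlin-3a and at 773 FPKM with DMSO. The checks thus did not all point one way, which limits the trust in single values. Why Mdm2 was listed at 0 was not tested. All genes together summed to 967341 FPKM with Nutlin-3a and 980491 FPKM with DMSO; the depth of the libraries is unknown. The preadipocyte marker Dlk1 had 623 and 513 FPKM and Vim, the vimentin gene, 1181 and 3169 FPKM, but Cd34 was under 1 FPKM in both groups and 6 of 9 fibroblast and preadipocyte markers compared were called lower in Nutlin-3a (Vim, Pdgfra, Ly6a, Col1a1, Col1a2 and Col3a1). Summed markers of mature adipocytes, epithelium, endothelium, male germ cells and neurons lay between 1.05 and 5.01 FPKM in Nutlin-3a and between 0.174 and 0.724 FPKM in DMSO. The highest of these sums, 5.01 FPKM for male germ cells, was mostly 1 gene, Prm1, at 4.77 FPKM in Nutlin-3a and 0 in DMSO. Cfd, Krt18, Cdh5, Emcn, Tnp1, Snap25 and the macrophage marker Adgre1 had no entry under these symbols and are in none of the sums. Macrophage markers summed to 8.25 and 3.51 FPKM, with Ptprc at 0.0618 and 0 FPKM, and muscle markers to 21.7 and 14.99 FPKM, with Myod1 at 0.0430 and 0 FPKM. The part of these shifts in the values of the chaperone genes was not tested.

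The regulators of the family differed little. Hsf1, the main activator of heat shock genes, had 22.3 FPKM with Nutlin-3a against 27.6 FPKM with DMSO, a log2 ratio of -0.29. Hsf2, a related factor that can pair with HSF1, had 4.69 against 3.77 FPKM, a log2 ratio of 0.25. Hsf4, Hsf5 and Hsf2bp were under 0.5 FPKM in both groups. HSF1 is controlled mainly at the protein, and its activity was not measured here.

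HSF1 binds heat shock elements, which are head-to-head and tail-to-tail repeats of the letters GAA. RefSeq promoters (250 bases before to 50 after each start, build GRCm38.p6) were found for 58 of the 75 members and searched on both strands for 2 neighbouring repeats (GAANNTTC or TTCNNGAA) and for 3 (GAANNTTCNNGAA or TTCNNGAANNTTC, each of which also holds the shorter form). The triple form was present in 4 of 58 members (6.90%) and in 0.662% of 27025 genes with a promoter in the table. The pair was present in 16 members (27.6%) and in 17.0% of all genes. The 4 members with the triple form, Dnajb6, Hspd1, Hspe1 and Hsph1, all had a ratio above 0, beside 54.8% of all genes compared. Their log2 ratios ran from 0.14 to 1.44, and Hsph1 alone of them was past the limit. Hspd1 and Hspe1 were counted on the same element, which lies between the starts used for them, so they are not separate cases. The 12 members with a pair but no triple gave 10 compared, with 1 higher (Hspb1), 1 lower (Hspb6), 6 above 0 and a median log2 ratio of 0.05. The 42 members with neither form gave 33 compared, with a median log2 ratio of 0.22. Among them were 4 of the 6 called higher (Dnajc25, Dnajc9, Dnajb1 and Hspa1l). They also held 2 of the 4 called lower (Hspa12b and Dnajc17). Over all genes compared 6.62% were called higher and 6.14% lower. The match of letters is a description of the window, not of binding. Only exact letters in this window were searched, so a gene with neither form, such as Dnajb1, was not shown to lack a heat shock element. Hsp90aa1, Hsp90ab1, Hspa8 and Hspa9 were among the members with no promoter found and are in none of these groups. The elements of 6 members are shown to compare the triple form with the pair in inducible genes; capitals mark the GAA repeats with the bases between them.
Hspe1: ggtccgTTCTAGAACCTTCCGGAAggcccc
Dnajb6: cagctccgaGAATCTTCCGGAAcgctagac
Hsph1: tgctgcagaTTCTGGAAAGTTCtcctcagt
Hspb1: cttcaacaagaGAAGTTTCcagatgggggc
Hspa1a: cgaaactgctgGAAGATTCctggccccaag
Hspa1b: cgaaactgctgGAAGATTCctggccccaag
These windows of 30 bases lie at chr1:55088053-55088082 (plus strand), chr5:29735843-29735872 (plus), chr5:149636280-149636309 (minus), chr5:135887791-135887820 (plus), chr17:34972242-34972271 (minus) and chr17:34959324-34959353 (minus). With the start base counted as 0, the window of Hsph1 runs from 6 to 35, inside the first exon. The window of Dnajb6 lies upstream of the RefSeq start used but inside an exon of GENCODE, which a neighbouring gene, Gm5129, overlaps, and the other windows lie upstream of a start and in no exon of the basic GENCODE set. The windows of Hspa1a and Hspa1b are identical.

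Hspa9 was counted in the mitochondrial role. Of 12 other HSP70 and HSP110 genes 10 were compared, with a median log2 ratio of 0.33. Of these 2 were called higher and 1 lower, beside 6.62% and 6.14% of all genes. Hspa8, the constitutive cytosolic HSP70 that also uncoats clathrin vesicles, had 641 FPKM with Nutlin-3a against 843 FPKM with DMSO, a log2 ratio of -0.40, and was the most abundant gene of its family in both groups. Its level is uncertain, since 68.8% of its 50-base words (every stretch of 50 bases in its transcripts, a measure of reads that could be placed elsewhere) occur in transcripts of 13 other genes. Hsph1 encodes an HSP110 protein that releases ADP from HSP70 and helps to dissolve aggregates. It had 29.8 against 10.4 FPKM, 2.87-fold higher (chr5:149616845-149636315, mm10), and none of the 50-base words of its transcripts occurred in another gene's transcripts. The HSP110 relative Hspa4 had 53.3 against 33.9 FPKM, a log2 ratio of 0.64, within the limit, and Hspa4l had 1.71 against 1.40 FPKM. Hspa14, which forms a ribosome-bound complex with the J protein Dnajc2, had 38.1 against 21.3 FPKM, and Dnajc2 had 42.0 against 24.3 FPKM. Both partners of this complex thus had ratios close to each other, with log2 ratios of 0.81 and 0.77.

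The stress-inducible HSP70 genes were low in both groups. Hspa1b had 7.31 FPKM with Nutlin-3a against 8.79 FPKM with DMSO, and Hspa1a was under the minimum mean with 0.467 and 0.185 FPKM. These neighbours on chromosome 17 are near copies: 62.3% of the 50-base words of Hspa1b and 66.3% of those of Hspa1a occur in transcripts of other genes, most often of each other, so the split between them is uncertain. Hspa1l, a testis-enriched HSP70 in the same cluster, was called higher at 2.98 against 0.515 FPKM (chr17:34972703-34979228). Of its exon bases 71.9% are shared with an antisense gene, Gm10501, and 71.4% of its 50-base words occur elsewhere, so its value is uncertain. Hspa2, another testis-enriched member, had 8.58 against 9.41 FPKM. Hspa13, an HSP70-like gene of the ER, had 5.24 against 3.48 FPKM.

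Hspa12b, a distant HSP70 relative known from endothelial cells, was the member with the lowest ratio, at 1.38 FPKM with Nutlin-3a against 8.04 FPKM with DMSO, 5.81-fold lower. Its listed model (chr2:131127412-131604824) reaches over 11 other protein-coding genes, whose log2 ratios ran from -1.35 (Cdc25b) to 0.68 (Smox) in the 10 with a value, with 4 above 0 and Cdc25b and Cenpb called lower. In GENCODE it shares no exon bases with another gene, and 0.385% of its 50-base words occur elsewhere. How far the wide listed model bears on its value was not tested. Of 5 endothelial markers 3 had an entry, and none of these passed the minimum mean. Pecam1 had 1.57 against 0.0260 FPKM, Kdr 0.0459 against 0 FPKM and Tek 0.102 against 0.148 FPKM. Cdh5 and Emcn had no entry under these symbols.

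The ratios of the HSP90 genes lay on opposite sides of 0, both within the limit. Hsp90ab1, the constitutive cytosolic HSP90, was the most abundant of all 75 members, with 1660.0 FPKM with Nutlin-3a against 1942 FPKM with DMSO, a log2 ratio of -0.23. Hsp90aa1, the stress-inducible form, had 139 against 85.7 FPKM, a log2 ratio of 0.69. The level of Hsp90ab1 was 22.7 times that of Hsp90aa1 in DMSO and 11.9 times in Nutlin-3a. For Hsp90aa1, 50.1% of the 50-base words occur in other transcripts, most often in Gm12346, against 4.13% for Hsp90ab1, so the level of Hsp90aa1 is the less certain of them.

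**Figure D2:**
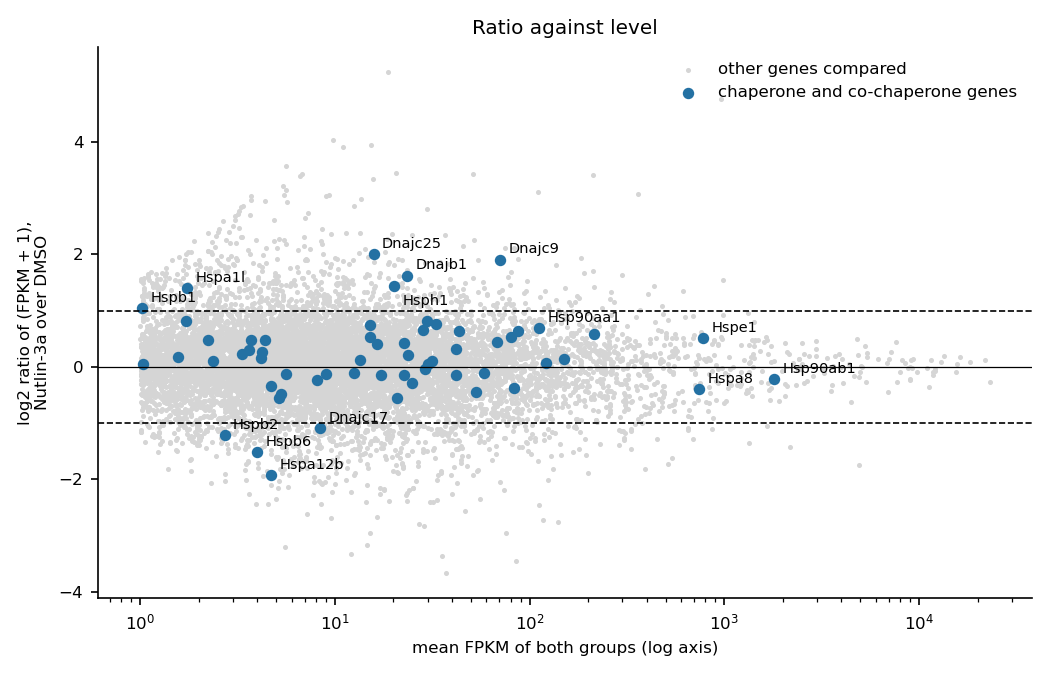
Log2 ratio of (FPKM + 1), Nutlin-3a over DMSO, against mean FPKM on a log axis, with chaperone and co-chaperone genes in blue and the other genes compared in grey; dashed lines mark the 2-fold limit. Dnajc9, at a mean of 70.9 FPKM, is the most abundant member past the limit, while Hsp90ab1, Hspe1 and Hspa8 lie within it.

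J proteins of class A and B carry parts that bind clients beside the J domain. Dnaja3 was counted in the mitochondrial role. Of the 14 members left here 10 were compared, with a median log2 ratio of 0.22. Of these 1 was higher and none lower, beside 6.62% and 6.14% of all genes. Dnajb1, the main heat-inducible J protein of the cytosol and partner of HSP70 and HSP110 in dissolving aggregates, had 36.1 FPKM with Nutlin-3a against 11.05 FPKM with DMSO, 3.27-fold higher (chr8:83608175-83612653). Its more abundant transcript had 34.5 against 8.51 FPKM, and the other 1.63 against 2.54 FPKM. The level of Dnajb1 relative to Dnaja1, a class A protein with 30.5 against 29.4 FPKM, was 1.19 with Nutlin-3a and 0.376 with DMSO. For Dnaja1, 27.1% of the 50-base words occur in transcripts of other genes, so these relative levels are uncertain.

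Dnajb6, which suppresses the aggregation of polyglutamine proteins, was the most abundant gene of this role, with 106 against 68.2 FPKM and a log2 ratio of 0.63. Of its 4 listed transcripts the upper 2 had 54.4 against 31.8 FPKM and 44.4 against 26.4 FPKM, while the third had 4.86 against 9.98 FPKM. The fourth had 2.71 against 0.00173 FPKM. Other genes' transcripts hold 26.6% of the 50-base words of Dnajb6 and 42.7% of those of Dnaja4. Dnaja2, a further class A protein, had 46.6 against 37.0 FPKM. The ER membrane gene Dnajb12 had 4.22 against 6.33 FPKM, and its relative Dnajb14 had 12.0 against 13.0 FPKM. Dnajb4 had 5.31 against 5.90 FPKM, Dnajb5 3.66 against 3.00 FPKM and Dnaja4 4.48 against 2.94 FPKM. Dnajb3, Dnajb7, Dnajb8 and Dnajb13 were at or under 0.193 FPKM in both groups.

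Class C J proteins share little but the J domain and bring HSP70 to single tasks. The class C genes Dnajc4, Dnajc11, Dnajc15, Dnajc19, Dnajc28 and Dnajc30 were counted in the mitochondrial role, so the values of this role leave them out. Of the 20 members left here 16 were compared, and 13 of these had a ratio above 0, beside 54.8% of all genes. In this role 2 were called higher and 1 lower, beside 6.62% and 6.14% of all genes. The median log2 ratio was 0.44, beside 0.07 over all genes. Dnajc9, a co-chaperone of histones H3 and H4, had 112.5 FPKM with Nutlin-3a against 29.2 FPKM with DMSO, 3.85-fold higher (chr14:20384638-20388910). Its rank among all symbols was 810 in Nutlin-3a and 2472 in DMSO. Dnajc25, a further class C gene, had 26.0 against 5.73 FPKM, 4.53-fold higher (chr4:59003193-59023398), and had the largest log2 ratio of the members compared. Its model overlaps Gm20503 on the same strand, and 7.72% of its 50-base words occur in other genes.

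Class C genes of RNA processing differed in direction. Dnajc8, a spliceosome-associated J protein gene, had 78.4 against 57.2 FPKM, a log2 ratio of 0.45. Dnajc17, also tied to splicing, had 5.01 against 11.8 FPKM, 2.36-fold lower (chr2:119172500-119217050). A correction for GC content took its log2 ratio from -1.09 to -0.99, just within the limit, and its model reaches over Zfyve19 (19.0 against 23.4 FPKM). Of the 50-base words of Dnajc17, 25.4% occur in transcripts of other genes, so its value is uncertain. Dnajc21, a factor of large ribosomal subunit assembly, had 18.1 against 12.2 FPKM, and Dnajc24, which acts in diphthamide synthesis, had 26.1 against 19.1 FPKM.

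Dnajc7, which binds both HSP70 and HSP90, had 44.5 against 61.1 FPKM, a log2 ratio of -0.45. Dnajc13, an endosomal J protein gene, had 4.02 against 5.34 FPKM, and these with Dnajc17 were the 3 genes of this role below 0. Among the Dnajc genes counted as mitochondrial, Dnajc4, Dnajc19 and Dnajc30 were below 0 and Dnajc11 and Dnajc15 above it. Dnajc10, an ER disulfide reductase, had 34.8 against 21.7 FPKM, and Dnajc5, the cysteine string protein of secretory vesicles, had 19.1 against 11.1 FPKM. Dnajc16 had 2.47 against 0.971 FPKM, a plain fold of 2.55 but a log2 ratio of 0.82 on the log2(FPKM + 1) scale, and so was not called. The remaining compared genes, Dnajc1, Dnajc14, Dnajc18 and Dnajc27, had between 1.003 and 4.47 FPKM in the groups and log2 ratios from 0.04 to 0.29.

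The 9 mitochondrial members compared all lay within the limit, beside 6.62% higher and 6.14% lower of all genes. Hspe1, the HSP10 lid of the folding chamber, had 915 FPKM with Nutlin-3a against 643 FPKM with DMSO, a log2 ratio of 0.51, while Hspd1, the HSP60 barrel, had 158 against 143 FPKM, a log2 ratio of 0.14. The level of Hspe1 was 5.79 times that of Hspd1 in Nutlin-3a and 4.49 times in DMSO. The genes lie back to back on chromosome 1, with the starts used 216 bases apart and a triple heat shock element between these starts. A second RefSeq promoter window of Hspd1 (chr1:55088194-55088493) lies past the start of Hspe1 and holds neither form, so this spacing holds for 1 start of Hspd1 only. The stretch between the starts used that no exon of the basic GENCODE set covers is shown because it holds this element. It is given on the strand of Hspe1 (chr1:55088025-55088131, plus strand), with the GAA repeats in capitals.
Hspe1 and Hspd1: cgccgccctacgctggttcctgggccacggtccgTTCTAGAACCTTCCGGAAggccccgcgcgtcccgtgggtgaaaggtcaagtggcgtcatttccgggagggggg
Of the 50-base words of Hspd1 and Hspe1, 42.1% and 44.8% occur in other transcripts, which include pseudogene copies, so both levels are uncertain.

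Hspa9, the mitochondrial HSP70 that pulls in precursors and folds them, had 125 against 119 FPKM. The J proteins of the import motor went opposite ways within the limit, Dnajc15 with 94.7 against 65.2 FPKM and Dnajc19 with 72.7 against 94.3 FPKM. Dnaja3, the J protein of the matrix, had 14.1 against 12.9 FPKM. Dnajc11, a protein of the cristae-forming complex, had 18.8 against 14.0 FPKM, Dnajc30 had 28.7 against 29.5 FPKM and Dnajc4 had 16.7 against 25.0 FPKM. Dnajc28 was under the minimum mean. Genes of this role summed to 1444 FPKM with Nutlin-3a against 1147 FPKM with DMSO, a difference made mostly by Hspe1.

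Small heat shock proteins with an Hspb symbol were the role with the lowest median log2 ratio, -0.14 over 5 genes compared, with Hspb11 counted among them. Of these 1 was called higher and 2 lower, beside 6.62% and 6.14% of all genes. Hspb6, known from muscle, had 1.58 FPKM with Nutlin-3a against 6.39 FPKM with DMSO, 4.05-fold lower (chr7:30553302-30555439). Hspb2, another muscle-enriched member, had 1.24 against 4.20 FPKM, 3.38-fold lower (chr9:50751072-50756635). Its model covers the neighbouring Cryab, which went the other way at 266 against 162 FPKM, a log2 ratio of 0.71. Of the 50-base words of Hspb2, 24.4% are shared with Cryab. Cryab, the alpha B crystallin gene, encodes a small heat shock protein too, but its symbol lies outside the stems used. It is in none of this role's values and was more abundant than the role's summed genes in both groups. Correcting for GC content took the log2 ratio of Hspb2 from -1.21 to -0.93, within the limit. Of 8 muscle markers Acta1 was called higher (1.74 against 0.368 FPKM), Tnnt2 (13.3 against 9.72 FPKM) and Des (4.15 against 4.90 FPKM) lay within the limit, and Myod1, Myog, Ckm, Actc1 and Myh3 were under 1 FPKM with Nutlin-3a and at 0 with DMSO. The log2 ratios of both genes lay inside the limit with a pseudocount of 5, at -0.79 for Hspb6 and -0.56 for Hspb2.

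Hspb1, the widely inducible HSP27 gene, was barely present, with 1.73 FPKM with Nutlin-3a against 0.327 FPKM with DMSO (chr5:135887919-135889563). Its log2 ratio of 1.04 was just past the limit and lay inside it after median centring (0.97), quantile normalization (0.85) and with a pseudocount of 5 (0.34). Its level is uncertain also because 50.1% of its 50-base words occur in other transcripts, most often in the pseudogene Hsp25-ps1. Its 140 bases upstream of the start are printed because they hold both GAA pairs found for this gene (chr5:135887779-135887918, plus strand), again with the repeats in capitals.
Hspb1: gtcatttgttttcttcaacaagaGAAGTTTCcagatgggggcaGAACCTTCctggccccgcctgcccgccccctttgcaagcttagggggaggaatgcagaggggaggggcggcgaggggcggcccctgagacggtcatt
Hspb8, the partner of BAG3 in selective autophagy, had 21.4 against 23.8 FPKM. Hspb11, placed in this role by name though it encodes a subunit of the intraflagellar transport complex, had 55.9 against 60.6 FPKM. It made up most of the role's summed FPKM, 81.9 with Nutlin-3a and 95.3 with DMSO.

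BAG proteins bind the ATPase domain of HSP70 and release its nucleotide. None of the 6 genes passed the limit, beside 6.62% higher and 6.14% lower of all genes, a share at which few calls would fall among 6 genes. Bag1, which links HSP70 to the proteasome, was the most abundant, with 258 FPKM with Nutlin-3a against 172 FPKM with DMSO, a log2 ratio of 0.58. Bag3, heat-inducible and active in selective autophagy, had 32.7 against 30.4 FPKM, a log2 ratio of 0.10. Bag6, which guards tail-anchored membrane proteins, had 39.8 against 44.3 FPKM, and its main transcript had 28.5 against 34.7 FPKM. Bag5 had 16.3 against 18.2 FPKM, and Bag2, an inhibitor of the ubiquitin ligase CHIP, had 4.02 against 6.34 FPKM. Bag4, known as silencer of death domains, had 2.76 against 1.72 FPKM.

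**Figure D3:**
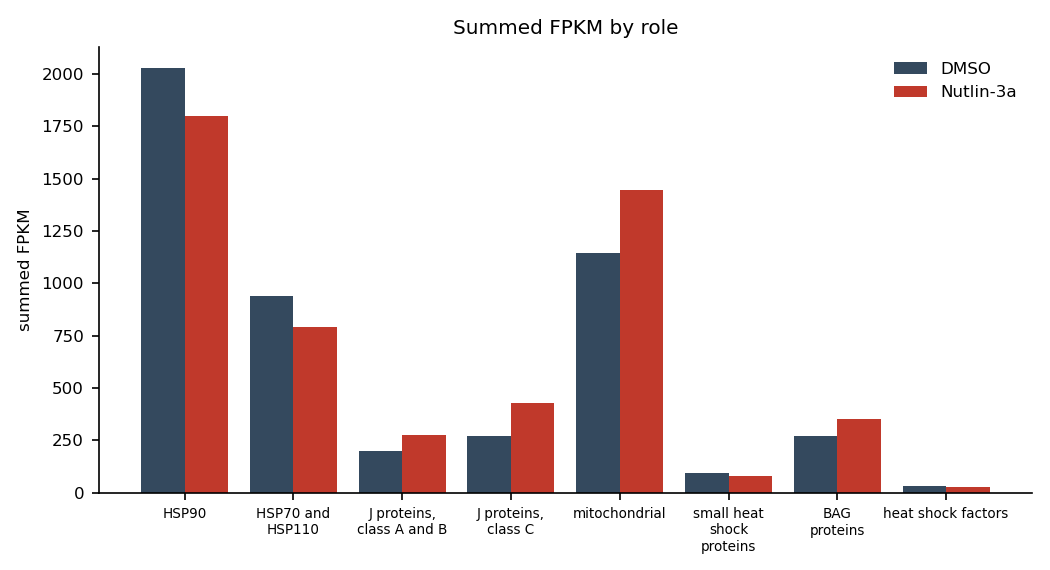
Summed FPKM of the members by role, with bars from 0 for DMSO (dark) and Nutlin-3a (red), 1 group value each. Hspa9, Dnaja3 and the mitochondrial Dnajc genes count only in the mitochondrial role. HSP90 and HSP70 with HSP110 are lower in Nutlin-3a (1799 against 2027 and 790.2 against 941 FPKM, the latter through Hspa8), and J proteins of class C (427 against 271 FPKM) and the mitochondrial role (1444 against 1147 FPKM) are higher.

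The 75 members together summed to 5199.5 FPKM with Nutlin-3a and 4986 FPKM with DMSO, or 0.538% and 0.508% of all FPKM. Hsp90ab1, Hspe1 and Hspa8 made up most of these sums. Without them the other 72 genes summed to 1983 FPKM with Nutlin-3a against 1557 FPKM with DMSO, a ratio of 1.27. HSP90 held 34.6% of the members' FPKM in Nutlin-3a and 40.7% in DMSO, HSP70 with HSP110 15.2% and 18.9%, and J proteins of class C 8.21% and 5.44%. Without Hspa8, HSP70 and HSP110 genes summed to 149 FPKM with Nutlin-3a against 97.8 FPKM with DMSO. Class A and B J proteins summed to 275 against 199 FPKM and BAG proteins to 354 against 273 FPKM. Small heat shock proteins with an Hspb symbol, and so without Cryab, summed to 81.9 against 95.3 FPKM, most of it Hspb11. Heat shock factors summed to 27.6 against 31.9 FPKM.

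Several transcripts were listed for 20 members, and for none of them was 1 transcript called higher and another lower. A transcript under 1 FPKM in both groups cannot reach the limit on the log2(FPKM + 1) scale. Most of these members list such transcripts, and the share over all genes was not computed, so no conclusion is drawn from this count. GC content moved with the ratios. Across 60 members the Spearman correlation of GC content with the log2 ratio was -0.323, and across 9935 of all genes compared it was -0.228; these are correlations across genes of the same group values, not across samples. The members called lower had a median GC content of 56.5% and those called higher of 50.9%, beside 48.4% for the rest. With ratios corrected for GC content all 6 members called higher remained so and 2 of the 4 lower ones did, Hspa12b and Hspb6, but none of the 4 lower calls held under every alternative tried.

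**Figure D4:**
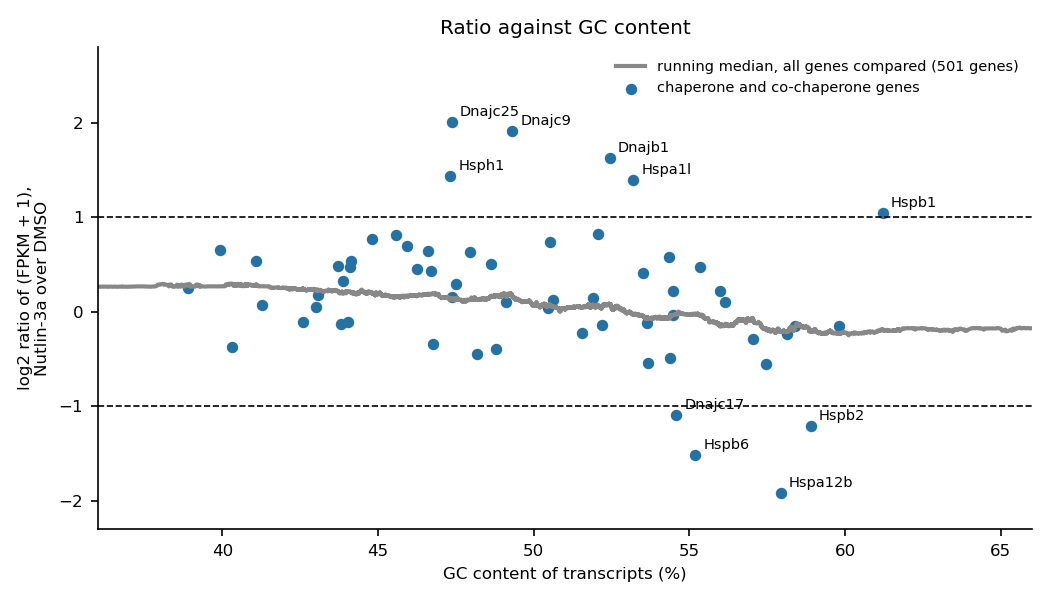
Log2 ratio of (FPKM + 1), Nutlin-3a over DMSO, of the members (blue points) against the GC content of their transcripts in percent, with the running median of all genes compared (grey line) and the 2-fold limit (dashed). The grey line falls from left to right, and Hspb1, which has the highest GC content of the members compared (61.2%), lies above it.

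Other genes of the folding network were compared as lists, beside 6.62% higher and 6.14% lower of all genes compared. None of 8 genes of the cytosolic chaperonin, the ring that folds actin and tubulin, passed the limit; its median log2 ratio was 0.18, with Cct5 at 479 against 489 FPKM and Cct7 at 357 against 278 FPKM. None of 6 prefoldin genes, which deliver chains to that ring, passed it either (median -0.08), with Pfdn5 at 1094 against 1349 FPKM and Pfdn6 at 264 against 220.5 FPKM. Of 24 other co-chaperones of HSP70 and HSP90, 1 was lower and none higher, with a median of 0.33. The lower one was Pih1d1, a subunit of the R2TP complex, at 49.6 against 103 FPKM. The ubiquitin ligase gene Stub1 had 305 against 409 FPKM, and St13, an HSP70-interacting protein gene, had 297 against 217 FPKM. Stip1, which hands clients from HSP70 to HSP90, had 89.3 against 50.3 FPKM, within the limit. None of 12 other mitochondrial chaperones and proteases passed the limit (median -0.11), with the protease genes Clpp at 91.8 against 131.5 FPKM and Htra2 at 67.7 against 97.6 FPKM.

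On a list of 20 genes that HSF1 is known to induce, 13 of them members, 19 were compared. Of these 3 were higher (Dnajb1, Hsph1 and Hspb1) and none was lower, with 15 above 0 and a median log2 ratio of 0.25. Over all genes compared 6.62% were higher, 6.14% lower and 54.8% above 0, with a median of 0.07. Hspb1, at 0.327 FPKM in DMSO, lost its call under several alternatives. The most abundant genes on the list, Hsp90ab1, Hspe1 and Hspa8, stayed within the limit, as did Bag3 and Hspa1b. By contrast, of 13 ER chaperone genes 6 were higher and none lower, with a median of 0.98. These included 3 of the genes left out of the members, Dnajb9 with 11.7 against 2.94 FPKM, Dnajb11 with 105 against 40.0 FPKM and Dnajc3 with 11.5 against 4.58 FPKM. Hspa5, the fourth, had 278 against 234 FPKM. The most abundant ER chaperone genes, Calr (497 against 451 FPKM) and Hsp90b1 (562 against 355 FPKM), lay within the limit. The other 3 called higher were Hyou1 (12.9 against 4.70 FPKM), Sdf2l1 (37.1 against 13.8 FPKM) and Pdia3 (494.5 against 246 FPKM). The difference between the lists was not tested, since there is 1 value per group.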

How the data were processed

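Total RNA of 3T3-L1 cells was sequenced in 2 groups of 2 biological replicates, grouped by sample title. The submitters' processing notes name TopHat2 2.0.11 and mm10. How the authors quantified transcripts and combined replicates is not given in these sources. The deposited table gives FPKM per transcript, as 1 value per group, under columns headed NUT and DSM; DSM was read as DMSO, the other group. Another 4294 blank lines were left out. Listed starts lay 1 base below the RefSeq start for 7651 of 15900 symbols and equalled it for 579, so they are printed with 1 added.

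FPKM was summed per symbol with pandas 2.3.3 (Python 3.11.15), a pseudocount of 1 was added, and genes with a mean of at least 1 FPKM and no 0 were compared. With no value per library, limma, the replicate block and leaving out libraries could not be run; a 2-fold limit took the place of a test. GC content (all 60 members compared, 96.2% of genes) and shared words of 50 bases came from GENCODE M21 transcripts, matched by symbol for 75 members. Read length is unknown, so 50 bases is a chosen length. The share was over 20% for 14 of the 60 members compared, including some where it is not given beside the value. Promoters came from RefSeq (GRCm38.p6).

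Genes named are members past the limit or within 0.15 of it, the 3 most abundant per role, all HSP90, BAG and heat shock factor genes, and in each pathway list the called genes and the 2 most abundant; further members are named to complete a role, after their values were seen. Members and lists were chosen with earlier results of these data known. Alternatives were other pseudocounts, filters, scalings, a 1.5-fold limit, a GC correction and the transcript with the highest mean.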

Additional observations from a re-analysis of the deposited data

How the results depend on the processing

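The count of members called higher, 6, went to 14 at a limit of 1.5-fold (background 17.8% of genes) and stayed between 4 and 7 under the other alternatives. The count called lower, 4, went to 1 with a pseudocount of 5, to 1 with a mean of at least 5 FPKM, and to 2 after a GC correction. All of these lower calls were of genes under 12 FPKM, and the stricter filter compared fewer members (43). Over all genes a pseudocount of 5 called 249 higher and 291 lower, against 684 and 634, and a limit of 1.5-fold 1839 and 1566. The members' median log2 ratio of 0.16 was 0.21 with a pseudocount of 0.1, 0.11 with a pseudocount of 5, 0.13 with a mean of at least 5 FPKM, 0.0929 after median centring, 0.11 after quantile normalization, 0.15 with the transcript of the highest mean and 0.15 after a GC correction. It stayed above 0 in each. Dnajc25, Dnajc9, Dnajb1 and Hsph1 kept their call under every alternative run, and no called member changed sign. None of the 4 lower calls held under all: a pseudocount of 5 left Hspa12b and a mean of at least 5 FPKM left Dnajc17. Of 33 named members 4, none called and all within 0.15 of 0, changed sign: Dnaja1 (0.05) was at -0.02 after median centring, -0.09 with the transcript of the highest mean and -0.11 after a GC correction, Hspa9 (0.07) at -0.0037 after median centring and -0.13 after a GC correction, and Bag5 (-0.15) and Bag6 (-0.15) at 0.15 and 0.08 after a GC correction. Hspa1l lost its call with a pseudocount of 5 (0.53). No paired analysis was possible because the table holds 1 value per group and none per library; leaving out libraries was not run for the same reason. Depth is unknown, and values under a few FPKM rest on few fragments.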
